A study of Mus musculus with 4 samples.

Results

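The nexin-dynein regulatory complex and the axonemal ruler are described here by RFX2 binding at the promoters of 8 of their genes, among 21951 protein-coding genes. The genes were chosen by name, as Drc1, Drc7, Ccdc65, Gas8, Tcte1 and Iqcg of the complex and Ccdc39 and Ccdc40 of the ruler. They are not all genes of the complex, and the choice was made with earlier results of these data known. A promoter was taken as 1000 bp upstream to 500 bp downstream of any annotated transcription start site (TSS) of the gene.

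The axoneme of a motile cilium or sperm flagellum is a ring of doublet microtubules around a central pair. The nexin-dynein regulatory complex ties each doublet to its neighbour and restrains and regulates the dynein arms, so that sliding is turned into bending. The ruler is a long coiled-coil pair of CCDC39 and CCDC40 that lies along the doublet and sets the spacing at which the complex, the radial spokes and the inner dynein arms attach. In the testis the axoneme is built in haploid spermatids, and transcription factors of the RFX family are known regulators of ciliary genes through the X-box, an inverted repeat.

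RFX2-bound DNA was recovered with an anti-RFX2 antibody from decapsulated testis of 2 WT (wild-type) mice of mixed C57BL/6, 129/Sv and FVB/N background and sequenced (ChIP-seq). The labels give an age of postnatal day 29 to 30 for all 4 samples, whereas the text of the study describes a germ cell preparation from younger mice. There were 2 RFX2 samples and 2 inputs, and no sample lacking RFX2 was among them. Whole testis holds somatic cells and germ cells of several stages, a peak list cannot show which of them carried the binding, and testis marker genes cannot be read from it. The lists of replicates 1 and 2 held 39825 and 21274 peaks, each with a score on a −log10 scale. The lowest scores were 2.03 and 2.08, and the study describes a permissive call on each replicate, so these lists include weak peaks. A further list of 2726 peaks, called combined here, also gave fold enrichment over local background and a summit. It was taken as a call on the pooled reads of both replicates, which the files do not state, and is not used as an independent replicate. The text of the study describes a list of nearly this length, kept by a cut on reproducibility between the 2 replicates. Whether the combined list passed that cut is not stated, so absence from it is not read here as absence of a pooled call. None of the lists carries read counts, so sequencing depth and counting error are unknown.

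The stretches of sequence that carried the best X-box match near each peak are shown first, because the genes differ in how much of the palindrome they hold. Each line gives 30 bases of GRCm38 on the strand of the gene, with the 14 bases nearest to the palindrome GTTGCCATGGCAAC in capitals.
Iqcg: cgcgacgcGTTGCCATAGCTACcgattagt
Ccdc40: gccccgcgGTAACCATGGCAACcatcatgc
Drc1: gtgactgcTTTCCCTTGGCAACggcttgtt
Drc7: cctccgctGTTACCATAGAGACaagtaaca
Gas8: tagtcggaGTTGCCAGGAGACCgcgcagcc
Ccdc39: gcctggctGTTGCTAGGGCCGCggaataca
Tcte1: caaccaacTGCGCCAAGCCAACcgcctcag
Ccdc65: aggtccttGTTGCTAGGAGACAagatgcgt

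RFX2 peaks were listed at the promoters of all 8 genes in both replicates. A promoter peak was listed for 8 of 8 genes in replicate 1, where 14.0% of all protein-coding genes had one, and for 8 of 8 in replicate 2, against 11.3%. Both replicate lists held a promoter peak for 9.04% of protein-coding genes (1985 genes). These are called bound in both replicates below, which does not mean firm binding, since both lists include weak peaks. The combined list held one for 5 of 8, namely Iqcg, Ccdc39, Ccdc65, Ccdc40 and Drc7, against 5.25% of all protein-coding genes. Drc1, Gas8 and Tcte1 had none there.

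Scores of the 8 genes spread over more than an order of magnitude and kept nearly the same order in both mice. From the highest to the lowest, replicate 1 gave Iqcg, Ccdc39, Ccdc65, Ccdc40, Drc7, Drc1, Gas8 and Tcte1. Replicate 2 gave the same order except that Gas8 stood in place 4 instead of 7. Spearman's rho between the replicates was 0.857 over these 8 genes and 0.880 over all 1985 genes with peaks in both, as a description. Scores were higher in replicate 1 than in replicate 2 for 7 of the 8. The ratio of the scores had a median of 2.18 over the 8 genes and 1.93 over the 1985 genes, with quartiles of 1.35 and 2.59. Iqcg, Ccdc39 and Ccdc65 were the upper 3 and Tcte1 was the lowest in both lists, whereas Gas8 changed place with Ccdc40, Drc7 and Drc1, so the order of Gas8 against these did not hold between the mice.

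**Figure D1:**
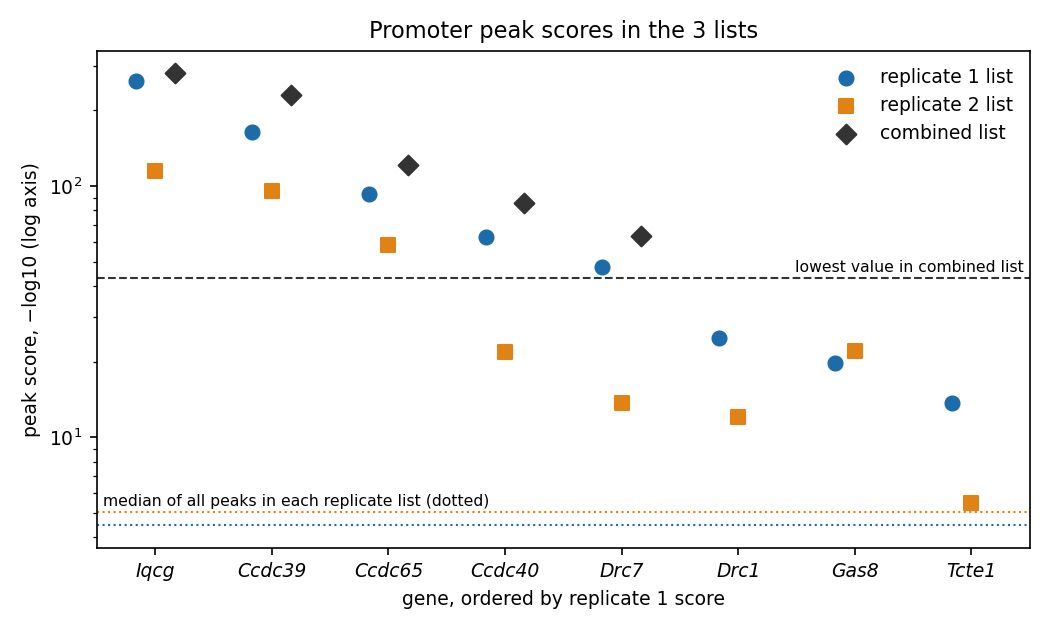
Score of the strongest promoter peak of each gene on a −log10 scale (log axis), with 1 point per list; the dashed line is the lowest value in the combined list and the dotted lines are the medians of all peaks in each replicate list. Iqcg and Ccdc39 are highest in all 3 lists, and Drc1, Gas8 and Tcte1 have no combined point.

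The ruler genes differed from each other in the strength and position of their peaks. Ccdc39 on chromosome 3 had the second-strongest promoter peak of the 8 genes. Its score was 163 in replicate 1 (rank 237), 95.2 in replicate 2 (rank 140) and 229 in the combined list (rank 158, 23.0-fold). Of the 1985 genes bound in both replicates, 8.56% scored higher in replicate 1 and 6.60% in replicate 2. The combined peak, chr3:33843380-33844898, was the widest of the 5 at 1519 bp, and its summit lay in the 5′ UTR, 28 bp downstream of the first coding TSS (33844301, minus strand).

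Ccdc40 on chromosome 11 encodes the partner of CCDC39 in the ruler. Its score was 62.7 in replicate 1 (rank 1393) and 21.9 in replicate 2 (rank 1537), and 85.3 in the combined list (rank 1294, 17.9-fold). The scores of the 2 ruler genes differed in the same direction in both replicates, and Ccdc40 stood near the middle of all bound genes, with 36.8% and 45.8% of the 1985 genes above it. Its peak did not cover the 5′-most TSS in any list. The combined summit lay in an intron, 869 bp downstream of the 5′-most TSS (119228572, plus strand) and 312 bp downstream of an internal TSS (119229129), and the replicate centres lay 767 and 734 bp downstream of the former. The peak, chr11:119228748-119229815, also met the promoter window of Tbc1d16 on the other strand, whose TSS (119228499) lay 942 bp from the summit. Promoter peaks at other internal starts were weak in both ruler genes, with a score of 4.15 for Ccdc39 in replicate 1 and 3.62 for Ccdc40 in replicate 2, and neither was listed in the other replicate.

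**Figure D2:**
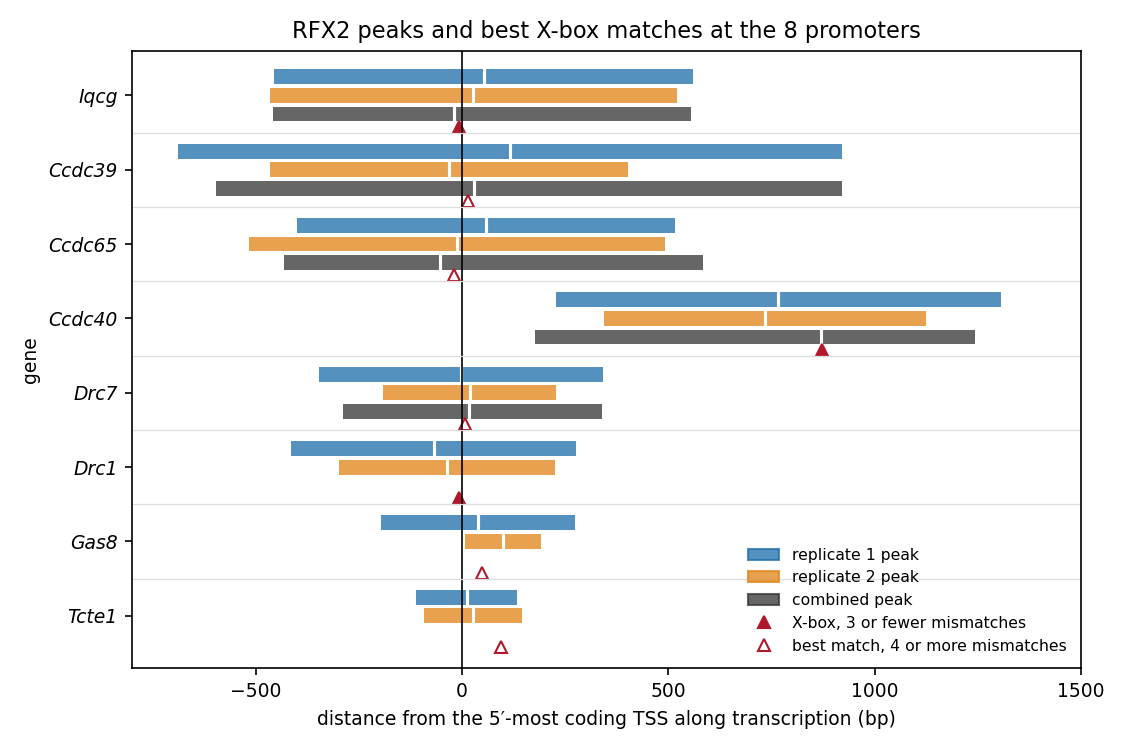
Extent of the strongest promoter peak of each gene in each list (bars), with the combined summit or the replicate peak centre as a white tick, against the distance from the 5′-most coding TSS along transcription in bp; triangles mark the best X-box match within 100 bp of the summit, or of the replicate 1 centre where no combined peak was listed. Peaks of 7 genes cover the TSS in replicate 1, whereas the peak of Ccdc40 lies downstream.

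Of the genes for the base of the complex, Ccdc65 had higher scores than Drc1 and Gas8 in both replicates. DRC1, CCDC65 (DRC2) and GAS8 (DRC4) are coiled-coil proteins that anchor the complex to the doublet. Ccdc65 on chromosome 15 scored 93.1 in replicate 1 (rank 759), 58.5 in replicate 2 (rank 401) and 122 in the combined list (rank 731). Its fold enrichment of 12.6 was the lowest of the 5 combined peaks, although its combined score was below those of Iqcg and Ccdc39 alone. The summit of this peak, chr15:98707776-98708792, lay 53 bp upstream of the TSS (98708207, plus strand).

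Drc1 on chromosome 5 scored 24.9 in replicate 1 (rank 3752) and 12.0 in replicate 2 (rank 2928). The peaks, chr5:30280973-30281665 and chr5:30281089-30281614, were centred 69 and 37 bp upstream of the TSS (30281388, plus strand). Replicate 1 alone listed further peaks inside the gene, centred 1197 and 6306 bp downstream of the TSS, with scores of 12.6 and 15.6. Gas8 on chromosome 8 scored 19.7 in replicate 1 (rank 4683) and 22.1 in replicate 2 (rank 1518), and was the 1 gene of the 8 with the higher score in replicate 2. Of the 1985 genes bound in both replicates, 70.7% scored higher than Gas8 in replicate 1 and 45.3% in replicate 2. Its ratio of 0.891 was above that of 9.22% of the 1985 genes. The Gas8 peaks, chr8:123518638-123519107 and chr8:123518841-123519024, were centred in the 5′ UTR 38 and 98 bp downstream of the first coding TSS (123518834, plus strand). The replicate 2 peak began downstream of that TSS and was the narrowest of the 8 in its list. It was 184 bp wide, beside a median of 181 bp over all replicate 2 peaks.

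The genes for peripheral subunits spanned the whole range of scores. IQCG (DRC9) carries a calmodulin-binding IQ motif, and TCTE1 (DRC5) and DRC7 belong to the outer part of the complex that reaches toward the neighbouring doublet. Iqcg on chromosome 16 had the strongest peak of the 8 in every list, with a score of 261 in replicate 1 (rank 37), 115 in replicate 2 (rank 75) and 281 in the combined list (rank 63, 28.6-fold). Only 1.31% and 3.38% of the 1985 genes scored higher in replicates 1 and 2. The peak, chr16:33055634-33056648, had its summit 20 bp upstream of the first coding TSS (33056190, minus strand) and 8 bp downstream of another annotated TSS of the gene. It also met the promoter of Rpl35a, a ribosomal protein gene on the other strand whose TSS (33056453) lay 243 bp from the summit, so the binding cannot be assigned to 1 of these genes from position alone.

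Drc7 on chromosome 8 scored 47.8 in replicate 1 (rank 1862), 13.7 in replicate 2 (rank 2689) and 63.5 in the combined list (rank 1836). It had the largest ratio between replicates of the 8, at 3.48, above that of 88.7% of the 1985 genes. Its combined peak, chr8:95054815-95055442, was 18.1-fold enriched and had its summit in the 5′ UTR, 17 bp downstream of the first coding TSS (95055103, plus strand).

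Tcte1 on chromosome 17 had the weakest promoter peak of the 8 in both replicates. It scored 13.7 in replicate 1 (rank 6328) and 5.47 in replicate 2 (rank 8586), where 40.4% of all listed peaks scored higher. The peaks, chr17:45523323-45523567 and chr17:45523342-45523579, were narrow (245 and 238 bp) and were centred 11 and 26 bp downstream of the TSS (45523434, plus strand). Replicate 2 alone listed a second peak 1256 bp downstream of the TSS, with a score of 6.03, which was higher than that at the promoter. The promoter score of Tcte1 in replicate 2 was near the median of all listed peaks there, 5.06.

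**Figure D3:**
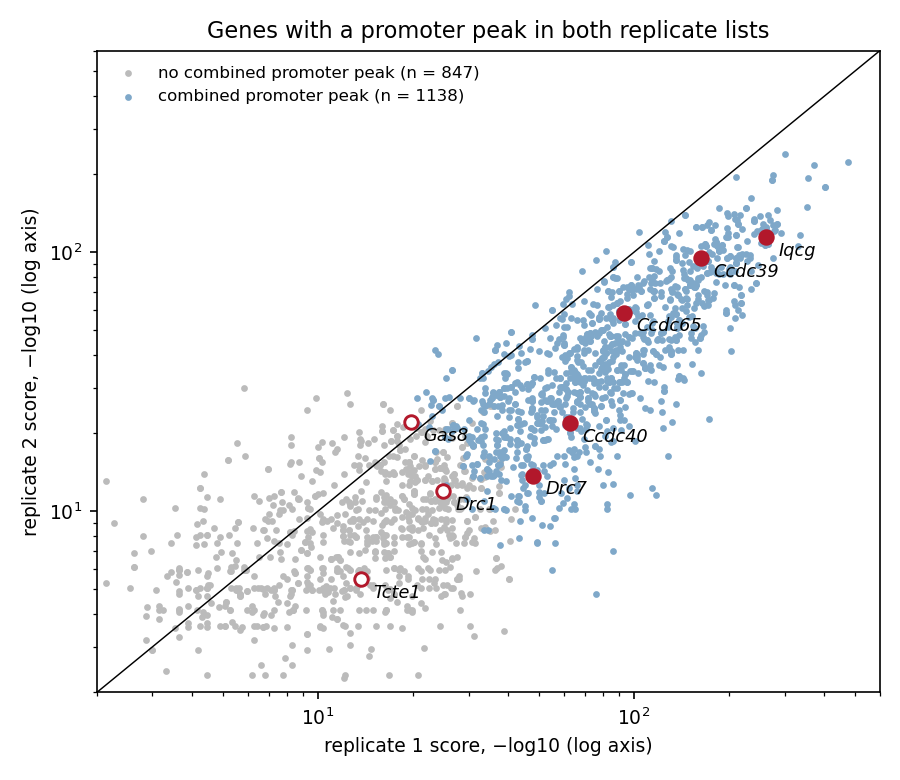
Score of the strongest promoter peak in replicate 1 against replicate 2 (both −log10, log axes) for the 1985 genes with a promoter peak in both lists; red circles are the 8 genes, filled where the combined list held a promoter peak, and the line marks equal scores. Gas8 lies just above the line and the other 7 genes lie below it.

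The 3 genes absent from the combined list were those with the lowest scores in replicate 1. In replicate 2 this was not so, since Gas8 scored higher there than Ccdc40 or Drc7, which were both listed. Every gene in all 3 lists scored at least 20.6 in replicate 1, which is below the score of Drc1 and above those of Gas8 and Tcte1. Of the 1131 genes that scored at least as high as Drc1 in both replicates, 94.7% had a combined promoter peak and of the 562 genes that scored no higher in both none had one. The same shares were 98.9% of 894 and none of 572 for Gas8, and 74.9% of 1519 and none of 176 for Tcte1. These counts leave out the gene itself.

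Within the combined list, significance and fold enrichment did not rank the 5 genes alike. Iqcg and Ccdc39 were high in both measures, with 4.16% and 10.7% of the 1153 genes with a combined promoter peak above them in −log10 p and 7.37% and 16.0% in fold. Ccdc65 had 40.2% above it in −log10 p and 65.0% in fold. Ccdc40 and Drc7 were the reverse, with 63.1% and 79.8% above them in −log10 p but 32.9% and 32.2% in fold. The median of the 5 was 122 in −log10 p and 18.1-fold, beside 106 and 15.0-fold over all 1153 genes.

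**Figure D4:**
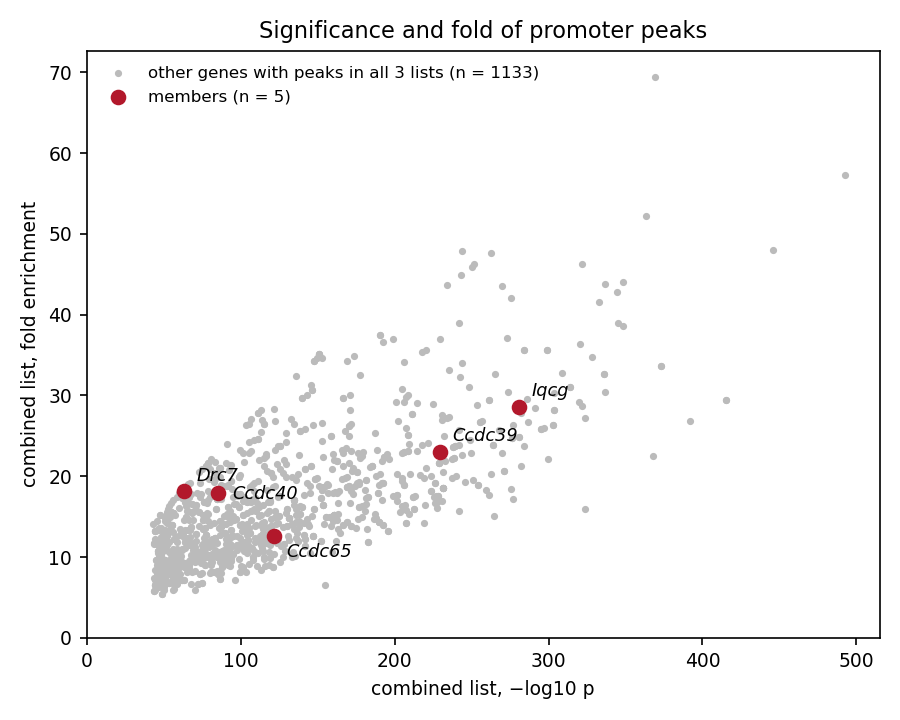
Fold enrichment against −log10 p of the combined promoter peak for genes with promoter peaks in all 3 lists (grey) and the 5 genes with a combined peak (red). Ccdc65 has the lowest fold of the 5, 12.6, but exceeds Ccdc40 and Drc7 in −log10 p.

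The summits lay close to the start sites. The median distance of the 5 combined summits from the nearest TSS of the gene was 28 bp, with a range of 8 to 312 bp, beside a median of 70 bp and quartiles of 23 and 191 bp over all 1153 genes. Peak centres gave medians of 40.5 bp in replicate 1 and 22.5 bp in replicate 2 over the 8 genes. The medians were 182 bp and 138 bp over all 3066 and 2474 genes with a promoter peak in that list. Those genes need not have a peak in the other replicate, as the 8 do, so the sets are not alike. The strongest promoter peaks were 245 to 1612 bp wide in replicate 1, where the median of all peaks, weak ones and those outside promoters included, was 199 bp. Outside promoters and within 5 kb of the gene bodies, replicate 1 listed 9 further peaks at 4 genes, with scores of 3.14 to 18.4. The highest of them exceeded the replicate 1 promoter score of Tcte1, 13.7. Replicate 2 listed 3 such peaks at 3 genes, with scores of 4.90 to 12.6. The highest of these exceeded the replicate 2 promoter scores of Drc1 and Tcte1. No such count was made for other genes. The combined list held no such peak, and the next nearest combined peaks lay from 48.5 kb (Tcte1) to 581 kb (Gas8) away from the first coding TSS.

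An X-box was found near the summit for 3 of the 8 genes. It was searched as the 14 letters GTTGCCATGGCAAC with at most 3 mismatches on either strand, within 100 bp to each side of the combined summit, or of the replicate 1 centre for Drc1, Gas8 and Tcte1. Of all combined peaks 75.5% held such a match, and of the 992 combined peaks in promoters 58.9%. Shares over combined peaks, here and below, are of combined summits only, whereas 3 of the 8 genes were searched at replicate 1 centres. Among the 5 genes with a combined promoter peak, 2 held a match (40.0%). The share was 0.990% in windows 1000 bp to the right of the summits and 2.50% at the first coding TSS of all protein-coding genes. A match is a description of sequence and not a measured site.

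The closest matches were those of Iqcg and Ccdc40, with 2 mismatches each. Substitutions are given as the base of the palindrome, its position counted from 1 at the 5′ end, and the base at the gene. Iqcg carried G9A and A12T at chr16:33056192-33056205, and its first half-site GTTGCCA was intact. Ccdc40 carried T3A and G4A at chr11:119229439-119229452, with the second half-site TGGCAAC intact, and this match lay 4.5 bp from the summit in the intron. Drc1 carried G1T, G4C and A7T at chr5:30281374-30281387, again with an intact second half-site, centred 7.5 bp upstream of the TSS and 61.5 bp from the replicate 1 centre. Thus 1 of the 3 genes absent from the combined list held an X-box, beside 32.7% of 764 replicate 1 promoter peaks of genes bound in both replicates but not in the combined list.

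The other 5 genes did not hold the palindrome within 3 mismatches, among them Ccdc39 and Ccdc65 which scored highest after Iqcg in both replicates. The best matches of Drc7, Gas8 and Ccdc39 had 4 mismatches, that of Tcte1 had 5 and that of Ccdc65 had 6. In Gas8 the first half-site was intact, and in Drc7, Ccdc39 and Ccdc65 it carried a single mismatch (G4A in Drc7, C6T in the other two). The best matches of Drc7, Ccdc39 and Gas8 lay 10.5, 13.5 and 9.5 bp from the summit or centre. An exact half-site was present in the windows of 4 of the 8 genes (Iqcg, Ccdc40, Drc1 and Gas8), of 36.3% of combined promoter peaks and of 1.69% of the windows to the right.

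A form of the X-box shorter by 1 letter was searched after these sites had been seen, as GTTGCCNGGCAAC with at most 2 mismatches in its 12 half-site letters. Gas8 met it with 2 mismatches at chr8:123518875-123518887, and Ccdc65 missed it with 3 at chr15:98708181-98708193. The short form was present in 10.3% of combined promoter peaks and 0.697% of the windows to the right. Either form was present in 4 of the 8 genes, beside 67.1% of combined promoter peaks. G+C content of the searched windows was 44.3% to 64.7%, with a median of 53.7%, beside 59.2% for the combined promoter peaks. The promoter stretch of 7 of the 8 genes was in the RefSeq table for GRCm38, and each was identical to the genome sequence read here.

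The other listed genes of the complex varied as widely. These are Drc3, Fbxl13, Efcab2, Iqcd, Iqca and Ccdc153, which encode further subunits or proteins assigned to the complex. Promoter peaks were listed for 5 of the 6 in replicate 1, 4 in replicate 2, 4 in both and 2 in the combined list. The shares of all protein-coding genes were 14.0%, 11.3%, 9.04% and 5.25%, in the same sequence. Iqca scored 122 in replicate 1, 67.9 in replicate 2 and 159 in the combined list (rank 444, 20.9-fold), and Drc3 scored 78.9, 25.5 and 93.9 (rank 1131, 13.3-fold). The scores of both lie between those of Ccdc39 and Ccdc40 in each list. The Drc3 peak also met the promoter of Tom1l2, with the combined summit 468 bp from its TSS, and the Iqca peak met that of the lincRNA gene 4930434B07Rik, 126 bp from its TSS. Efcab2 scored 37.4 and 12.5 in the replicates, with centres 700 and 641 bp upstream of the TSS, and Iqcd scored 4.24 and 12.3 at peaks that also met the promoter of Tpcn1. Fbxl13 had a promoter peak in replicate 1 alone, with a score of 14.3, which also met the promoter of Armc10, and Ccdc153 had none in any list. With the 6 genes of the complex above, 10 of 12 had promoter peaks in both replicates and 5 of 12 in the combined list. Over all protein-coding genes these shares were 9.04% and 5.25%.

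The same promoter rule was applied to other axonemal parts, as counts only. Of 14 radial spoke genes, 11 had promoter peaks in both replicates and 9 in the combined list. Of 9 outer dynein arm chains these were 5 and 1, and of 9 inner dynein arm heavy chains 4 and 1. The same rule gave 9.04% of all protein-coding genes in both replicates and 5.25% in the combined list. The differences between these groups of genes and the 8 genes were not tested.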

How the data were processed

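ChIP-seq of RFX2 and inputs from testis of 2 WT mice were grouped by the sample titles. The authors mapped reads to GRCm38 (Ensembl release 70), discarded reads with several locations, removed reads of human origin from the second run of replicate 2, and called peaks against input. They describe a permissive call on each replicate, after which peaks reproducible between the replicates were kept. The submitters' processing notes name CASAVA 1.8.2, Bowtie 0.12.7 and MACS2 2.0.10.20130520. Loss of reads with several locations lowers signal in repeats, and removal of human reads can lower conserved sequence in replicate 2 only.

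The deposited replicate lists give 1 −log10 value per peak, not named as a p- or q-value. The study describes a p-value threshold for its permissive replicate calls, but does not say that the listed values are those p-values. The deposited combined list holds, per peak, the summit, a score, a p- and a q-value as −log10, and fold enrichment as a ratio to the local background. It is filed with replicate 2, but its peaks are named "all", and it was taken as a call on pooled reads. Scores printed for it are −log10 p. No list of an input was analysed here, so there was no comparison between groups and no test.

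Peaks were joined to GENCODE release 21 promoters (GRCm38 patch 6) at an overlap of at least 1 bp with Python 3.11.15, pandas 2.3.3 and numpy 2.4.6. Counts were checked with bedtools 2.31.1, and the scripts were tested on simulated data. A gene was described by its highest-scoring promoter peak, ranks are within a list, and positions are 1-based. All 8 genes, the 6 other genes of the complex and genes whose promoter met the same peak as theirs are named, and 1 further peak is not reported here. Members and lists were chosen with earlier results of these data known.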

Additional observations from a re-analysis of the deposited data

How the results depend on the processing

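The count of 8 of 8 genes in both replicates held with the 5′-most coding TSS, a promoter of 500 bp upstream to 50 bp downstream, the peak centre or at least 50% of the peak inside the promoter, and the top 50% of each list. The share of all protein-coding genes in these settings was 7.07% to 8.66%. The combined count of 5 held in these settings except in the top 50%, where it was 4 without Drc7. Of all protein-coding genes 4.48% to 5.01% had a combined promoter peak in these settings, and 3.42% in the top 50%. With the list of either replicate in its place, that is without the other replicate, the count was 8 in each case. The shares of all protein-coding genes were then 14.0% for replicate 1 and 11.3% for replicate 2. The number of genes with an X-box was 2 at a limit of 2 mismatches, 6 at a limit of 4, 3 in the whole peak and 2 around the peak centre, where Ccdc40 was lost. Of combined promoter peaks 34.0% held a match at a limit of 2 and 77.9% at a limit of 4. No such share was taken for the whole peak or the peak centre. With the short form, an alternative chosen after seeing the data, the number of genes was 4, beside 67.1% of combined promoter peaks. The median distance of the 5 combined peaks from the TSS was 28 bp with the 5′-most coding TSS and 53 bp with the peak centre. Taking the promoter peak nearest to a TSS changed 1 of 21 scores, that of Ccdc40 in replicate 2, to 3.62. No paired analysis was possible because the values come from no test and no list of the inputs was used. Depth is unknown, and a gene without a peak may lie under the limit of the call.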
